A study of Mus musculus with 4 samples.

Results

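Heat shock proteins and other molecular chaperones were followed in RNA-seq libraries of BV-2, an immortalised mouse line used to model microglia, the macrophages of the brain. The set held 90 of the 23783 genes with a record in the deposited table. They were picked by symbol: every symbol that starts with Hsp, Dnaj or Cct and a digit, with Tcp1, Hsf1, Calr, Canx, Pdia3, Pdia4 and Pdia6 added. The most abundant RefSeq transcript record stood for each gene. The symbol rule also takes genes that are not chaperones, such as Hspg2, which encodes the matrix proteoglycan perlecan.

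The design has 2 groups of 2 libraries each. One group is labelled as control BV-2 cells and the other as BV-2 cells given lipopolysaccharide (LPS), a bacterial cell wall component that activates Toll-like receptor 4, at 10 ng/ml for 4 h; the control titles carry the same time. Whether the 2 libraries of a group stem from different cultures is not stated in the labels. Every p below thus measures the spread between these samples alone, and that spread may be technical. Mixed glial cultures are mentioned in the growth protocol, although all 4 samples are labelled as the cell line.

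Molecular chaperones bind unfolded or partly folded proteins and prevent their aggregation. Proteins of the HSP70 family take up short exposed stretches of a client in cycles of ATP hydrolysis that J proteins start and exchange factors reset, and HSP90 proteins then act late on kinases, receptors and transcription factors. Chaperonins enclose a client in a ring. Inside the endoplasmic reticulum (ER), the lectins calreticulin and calnexin and the protein disulphide isomerases fold secreted and membrane proteins, among them the cytokines and receptors a macrophage makes. Heat shock factor 1, the product of Hsf1, turns on many cytosolic members through heat shock elements, and the unfolded protein response turns on ER members through ER stress response elements.

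Library totals lay between 2778686 and 3368693 counts, and 1 record alone took 30.6% to 38.2% of a library. The 5 most abundant records took 53.4% to 67.5%, leaving 902176 to 1425303 counts per library for everything else. The chaperone set held 2.66% and 2.82% of those remaining counts in the controls and 2.88% and 2.95% after LPS. Without Hspa8 it held 1.84% and 2.05% in the controls and 1.93% and 1.97% after LPS, so the groups then overlapped. Of 14 microglial and macrophage markers, 1 (Itgam) was listed at 0 throughout. Trem2, Ptprc, Aif1 and Cx3cr1 were near 0, with at most 9 counts in any library. The summed level of the list was 5300 and 4092 normalised counts in controls and 6747 and 6685 after LPS. Cd14 and Spi1 were the 2 markers that passed the test (log2 fold changes 2.26 and 1.15). The other markers of the list summed to 4117 and 3183 in controls and 3071 and 2969 after LPS, and 6 of the 7 tested among them had negative log2 fold changes. All 8 oligodendrocyte and all 6 fibroblast markers were at 0 in every library, as were 7 of 8 neuronal and 5 of 8 astrocyte markers, the latter including Gfap and Aqp4. Of all genes, 59.2% of those with 2 or more records and 45.8% of those with 1 record were at 0 in every library. A marker at 0 is therefore not read as absence of a cell type. The astrocyte marker Aldoc was counted, with 98 and 92 counts in controls and 126 and 93 after LPS. The 5 LPS response genes checked (Il1b, Acod1, Nfkbia, Ptgs2 and Saa3) summed to 156 and 160 normalised counts in controls and 12356 and 12832 after LPS.

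Promoter windows from RefSeq (GRCm38.p6), 250 bases before to 50 after a gene's start, were found for 74 of the 90 genes. Hspa8, Hsp90aa1, Hsp90ab1 and Hsf1 were among the genes without a window, so they were not searched. A heat shock element was searched as 3 alternating units, GAANNTTCNNGAA or TTCNNGAANNTTC, which are each other's complement, so that both strands were covered. It occurred in the windows of 179 of 27025 genes (0.662%) and of 4 of these 74 (5.41%), namely Dnajb6, Hspd1, Hspe1 and Hsph1; the match of Hsph1 was not wholly before its start. The ER stress response element, searched on both strands as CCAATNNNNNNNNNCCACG, occurred in 37 genes (0.137%) and in 6 of the 74 (8.11%), namely Calr, Canx, Dnajc3, Hsp90b1, Hspa5 and Pdia6. A match describes the letters only.

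The heat shock elements between Hspd1 and Hspe1 are shown because these 2 genes, which encode the subunits of the mitochondrial chaperonin, are transcribed away from each other. In RefSeq 215 bases separate the start of Hspe1 from the nearest start of Hspd1 that does not overlap it, and a second Hspd1 transcript starts inside Hspe1. The printed bases lie at chr1:55088053-55088082 on GRCm38.p6, on the plus strand, that of Hspe1, and 18 of them, in capitals, hold 2 overlapping matches.

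Hspd1-Hspe1: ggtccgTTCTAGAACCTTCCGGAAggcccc

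For 4 measured genes the ER stress response element is shown in capitals, on the strand of the gene, with 20 bases on each side. The matches ended 143 bases before the start in Calr (chr8:84847055-84847113, minus strand), 79 in Pdia6 (chr12:17266471-17266529, plus strand) and 86 in Dnajc3 (chr14:118937807-118937865, plus strand). Hsp90b1 (chr10:86705513-86705676, minus strand) held 2 matches, the nearer of them ending 88 bases before the start. In Calr, and in the nearer match of Hsp90b1, the motif runs in the opposite direction to the gene.

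Calr: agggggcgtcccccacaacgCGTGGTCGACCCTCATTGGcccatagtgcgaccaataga

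Pdia6: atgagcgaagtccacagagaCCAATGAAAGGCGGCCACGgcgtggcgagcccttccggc

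Dnajc3: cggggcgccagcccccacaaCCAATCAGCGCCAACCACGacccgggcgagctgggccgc

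Hsp90b1: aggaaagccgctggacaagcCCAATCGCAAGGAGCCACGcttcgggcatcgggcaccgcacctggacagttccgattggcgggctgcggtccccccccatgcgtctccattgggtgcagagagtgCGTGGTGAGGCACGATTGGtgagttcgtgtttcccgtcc

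The comparison asks whether the chaperone transcripts of these cells differ after 4 h of LPS. No tested chaperone gene passed the test in either direction. Of the 90 genes, 50 had enough counts for testing, and edgeR's quasi-likelihood test called 0 of them at the threshold of 0.05 on the adjusted p, beside 386 of all 6981 records tested (5.53%). None of the 50 had an unadjusted p below 0.05, beside 1076 of the 6981 records. The lowest among the 50 was 0.0544, for Dnaja2. DESeq2 and limma-voom also called 0 of the 50, with 0 and 1 at an unadjusted p below 0.05. The median log2 fold change of the 50 was 0.04, with 29 positive and 21 negative values. Over all records tested it was -0.01, with 3375 positive and 3606 negative values.

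**Figure D1:**
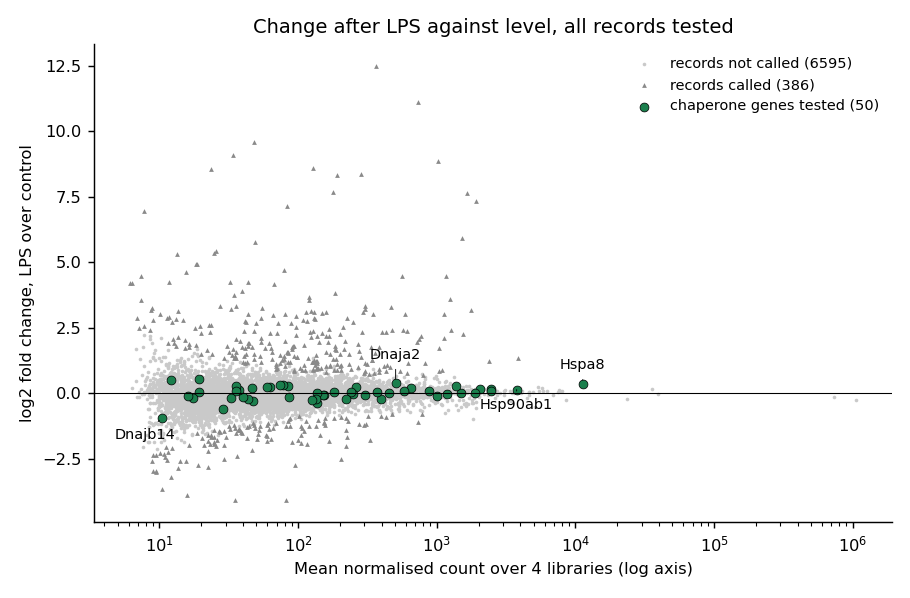
Each point is a record, placed by its mean normalised count over 4 libraries (log axis) and its log2 fold change of LPS over control; triangles mark the 386 called records and large green points the 50 tested chaperone genes. The chaperone genes lie between -0.94 and 0.55 on the vertical axis, while called records reach 12.51.

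Given the spread between these libraries, the 95% interval of the log2 fold change lay between -1 and 1 for 44 of the 50. That range is a 2-fold change either way. Each interval stands for 1 gene without adjustment for the number of genes. Of the 35 genes whose mean reached 50 normalised counts, 34 had such an interval, and the exception was Dnajc2, which was called without control 2 (log2 fold change 1.10, adjusted p 0.00193). Among all records at or above that level, 238 of 4117 were called (5.78%), and the smallest called change there was 0.71 on the log2 scale, in M6pr. Both LPS libraries lay wholly above or wholly below the 2 controls for 18 of the 50 (above in 11, below in 7), against 43.4% of all records tested.

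**Figure D2:**
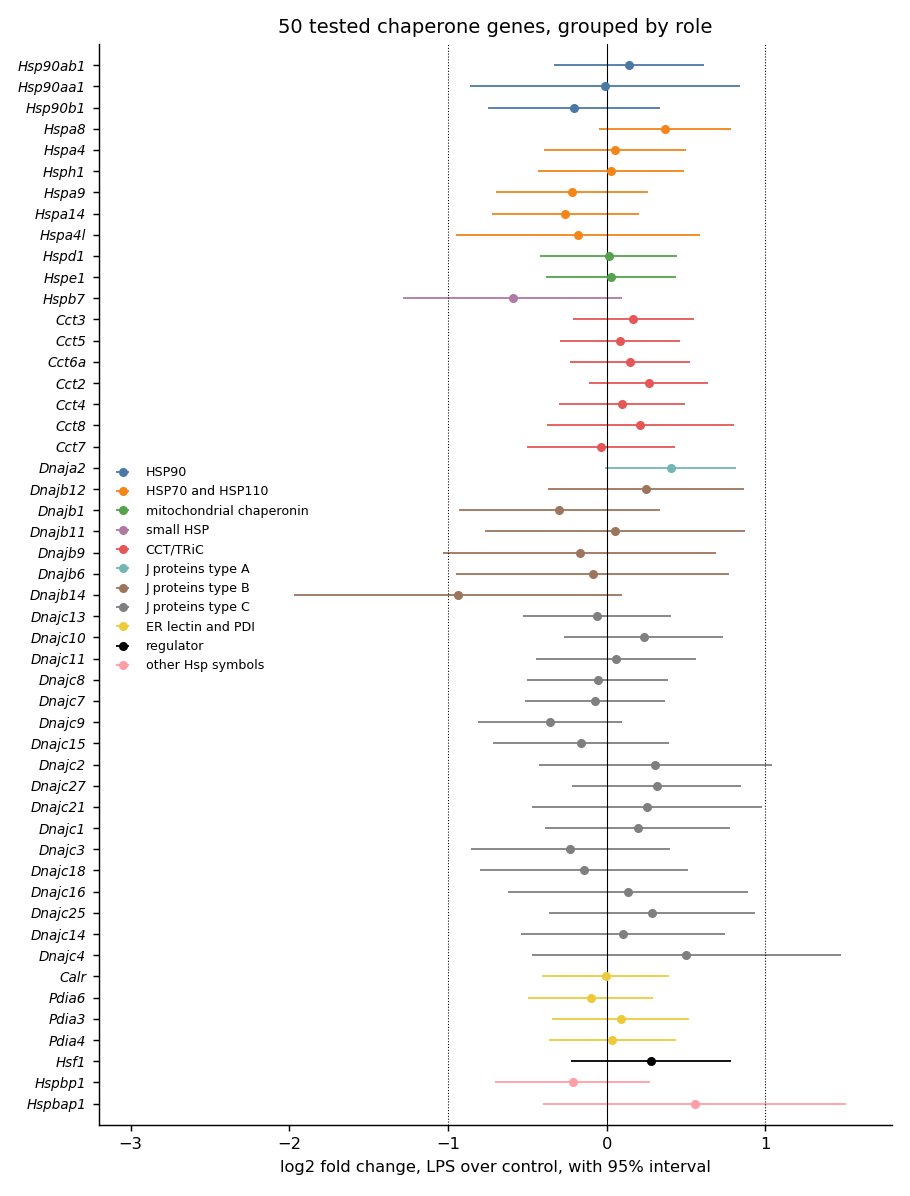
Log2 fold change of LPS over control with its 95% interval (horizontal bar) for the 50 tested chaperone genes, coloured by role and ordered by level within a role; dotted lines mark a 2-fold change. In 44 genes the bar stays between the dotted lines, and the widest bars belong to low genes such as Dnajb14 and Hspbap1.

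Hspa8 encodes HSC70, the constitutive HSP70 of the cytosol (chromosome 9, NM_031165), and was the most abundant chaperone transcript by a wide margin. It had 10432 and 9299 normalised counts in the controls and 12576 and 12826 after LPS, and ranked sixth among all records tested. Both LPS libraries lay above both controls. The log2 fold change was 0.36 (SE 0.189, 95% interval -0.05 to 0.78, adjusted p 0.415), so the difference did not pass the test. Hspa8 was the 1 chaperone gene called once the GC and length trend of each library was removed (log2 fold change 0.38, adjusted p 0.0232). That fit called 11.2% of all records tested. Over all alternatives the log2 fold change of Hspa8 stayed positive, from 0.28 to 0.46. RefSeq lists pseudogenes for several chaperone genes, and how reads from such near-identical copies were counted is not given in the sources used here.

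Hspa8 counts made up 30.9% and 27.4% of all chaperone counts in the controls and 33.2% and 33.4% after LPS. These shares do not depend on library scaling and were not tested. Over the 4 libraries the shares of other roles were 27.7% to 28.6% for the CCT chaperonin, 14.0% to 15.4% for HSP90 genes and 9.53% to 11.7% for the ER lectins and disulphide isomerases. Per kb of transcript, Hspa8 averaged 4713 normalised counts, followed by Hsp90ab1 with 1494, Cct5 with 1317, Cct3 with 1242 and Calr with 865. Cct6a has no matched transcript length and is left out of this order.

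**Figure D3:**
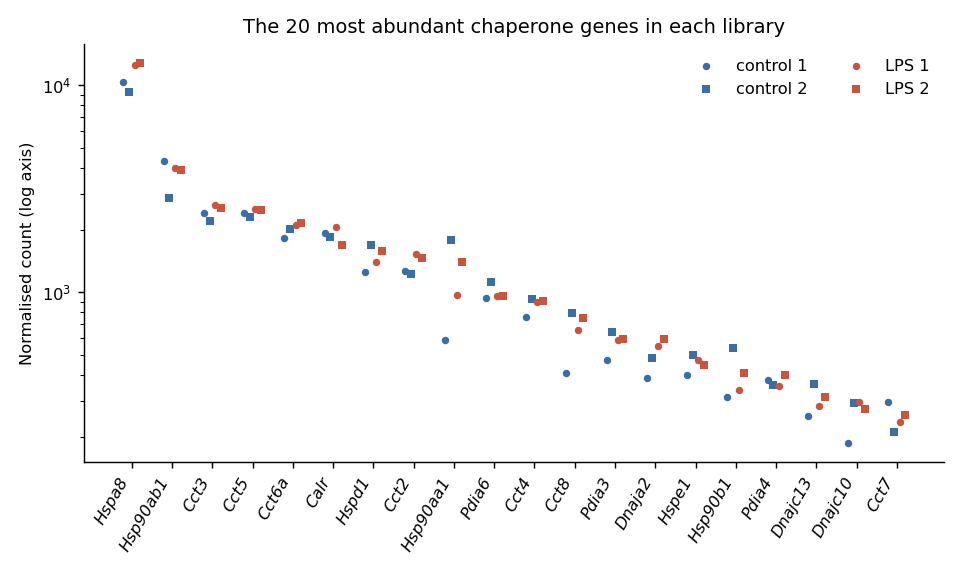
Normalised counts (log axis) of the 20 most abundant chaperone genes in each of the 4 libraries, with controls in blue, LPS in red, replicate 1 as circles and replicate 2 as squares. Control 1 stands below the other 3 libraries for Hsp90aa1 (588 normalised counts) and Cct8 (408).

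The other HSP70 and HSP110 genes gave smaller values. Hspa4 (log2 fold change 0.05), Hsph1 (0.03) and Hspa4l (-0.18) encode HSP110 proteins, which exchange the nucleotide of HSP70. Hsph1, an inducible target of heat shock factor 1, had 125 and 143 normalised counts in the controls and 135 and 140 after LPS, so the LPS values lay inside the control range. Hspa9, the mitochondrial HSP70, had a log2 fold change of -0.22, and Hspa14, a ribosome-associated member, of -0.26. For both genes the LPS libraries lay below the controls, and neither passed the test. The stress-inducible pair Hspa1a and Hspa1b could not be compared: Hspa1a was listed at 0 in all 4 libraries, and Hspa1b had 1 count in control 2 and 1 in LPS 1. Hspa1a and Hspa1b are near-identical copies, which counting can drop or split.

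Among the 50 genes, Hsp90aa1 had the largest ratio between the control libraries. Hsp90aa1, the inducible cytosolic form (chromosome 12, NM_010480), had 588 normalised counts in control 1 and 1788 in control 2, and 974 and 1397 after LPS. Both LPS values lay inside the control range, and the log2 fold change was -0.01 (SE 0.387, 95% interval -0.86 to 0.84, adjusted p 0.996). Without control 1 it was -0.58, and without control 2 it was 1.01. The direction for Hsp90aa1 therefore depended on which control was kept.

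Hsp90ab1, the constitutive form (chromosome 17, NM_008302), went the other way in the controls, with 4307 normalised counts in control 1 and 2864 in control 2. After LPS it had 3993 and 3900, again inside the control range (log2 fold change 0.14, adjusted p 0.883). Counts of Hsp90ab1 per kb were 9.54 times those of Hsp90aa1 in control 1 and 2.09 times in control 2, and 5.34 and 3.63 times after LPS. Hsp90b1, which encodes the ER form GRP94, had 314 and 538 normalised counts in controls and 337 and 408 after LPS (adjusted p 0.837, log2 fold change -0.20). With control 1 left out, the log2 fold change was 0.47 for Hsp90ab1 and -0.52 for Hsp90b1. With control 2 left out, both had the opposite sign (-0.13 and 0.24), so the directions of all 3 HSP90 genes depended on the control kept.

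The genes of the mitochondrial chaperonin did not pass the test. Hspd1, for the ring protein HSP60, had 1253 and 1703 normalised counts in controls and 1406 and 1578 after LPS (log2 fold change 0.01, 95% interval -0.42 to 0.44). Hspe1, for the lid protein HSP10, had 401 and 497 in controls and 471 and 448 after LPS (log2 fold change 0.03, 95% interval -0.38 to 0.44). For both genes the LPS values lay between the control values. The count ratio of Hspd1 to Hspe1 was 3.13 and 3.43 in controls and 2.99 and 3.52 after LPS. Dnajb6, a J protein with a heat shock element in its window, had a log2 fold change of -0.09.

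CCT, also called TRiC, is the cytosolic chaperonin that folds actin and tubulin. Of its 10 genes by symbol, 7 were tested, 6 with a positive log2 fold change, and 0 passed. Cct3 had 2409 and 2215 normalised counts in controls and 2631 and 2563 after LPS (adjusted p 0.799, log2 fold change 0.17). Cct5 had 2432 and 2304 in controls and 2528 and 2498 after LPS (0.09). Cct2 had the largest value of the 7, with 1269 and 1221 in controls and 1526 and 1464 after LPS (log2 fold change 0.26, SE 0.170, 95% interval -0.11 to 0.64, adjusted p 0.562). In Cct2, Cct3, Cct5 and Cct6a both LPS libraries lay above both controls. Of all 6981 records tested, 3375 had a positive log2 fold change, and in 43.4% the groups did not overlap in either direction. The subunits share the same libraries, so they are not independent of each other.

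The remaining CCT subunits overlapped between groups. Cct4 had a log2 fold change of 0.10 and Cct7 of -0.04. Cct8 had 408 normalised counts in control 1 and 799 in control 2, with 655 and 752 after LPS (adjusted p 0.848, log2 fold change 0.21). Its log2 fold change was 0.78 without control 2 and -0.18 without control 1. Cct4 and Cct7 also had opposite signs in these fits. Although the subunits stand at equal numbers in the ring, their transcripts per kb ranged from 103 normalised counts for Cct7 to 1317 for Cct5. Tcp1, which encodes the first subunit, was listed at 0 in all 4 libraries under both of its records.

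J proteins bring clients to HSP70 and start its ATP hydrolysis. Of 44 J protein genes, 24 were tested: 1 of 4 of type A, 6 of 12 of type B and 17 of 28 of type C. Dnaja2, a cytosolic partner of HSC70, came closest to the threshold. It had 385 and 483 normalised counts in controls and 554 and 599 after LPS, with both LPS values above both controls (log2 fold change 0.40, SE 0.188, 95% interval -0.01 to 0.82, adjusted p 0.340). Its log2 fold change ran from 0.24 to 0.57 across alternative settings, and was highest without control 2. Dnajb1, the classic stress-inducible HSP40, had 61.9 and 43.0 normalised counts in controls and 43.5 and 40.1 after LPS (adjusted p 0.778, log2 fold change -0.30). Dnaja1 had 2 counts in all over its 3 records and was not tested.

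The 2 most abundant type C genes serve other compartments. Dnajc13, an endosomal J protein, had 253 and 363 normalised counts in controls and 282 and 312 after LPS (log2 fold change -0.06). Dnajc10, an ER disulphide reductase, had 187 and 292 in controls and 295 and 273 after LPS (adjusted p 0.783, log2 fold change 0.23). The log2 fold change of Dnajc10 was 0.60 without control 2 and -0.03 without control 1. Dnajc7, Dnajc8 and Dnajc9 had lower values in both LPS libraries than in both controls, with log2 fold changes of -0.07, -0.06 and -0.36, and did not pass. The largest differences sat in low genes with wide intervals. Dnajb14, an ER membrane J protein, had 14.1 and 13.5 normalised counts in controls and 8.32 and 5.87 after LPS, below both controls (log2 fold change -0.94, 95% interval -1.97 to 0.10, adjusted p 0.396). For Dnajc4 the log2 fold change was 0.50 with an interval from -0.47 to 1.47.

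The 4 tested ER lectin and disulphide isomerase genes had log2 fold changes from -0.10 to 0.09. Calr, the lectin calreticulin (chromosome 8, NM_007591), had 1941 and 1848 normalised counts in controls and 2069 and 1700 after LPS (log2 fold change -0.01, 95% interval -0.41 to 0.39). Pdia6 had 941 and 1122 in controls and 965 and 959 after LPS (log2 fold change -0.10). Pdia3, the isomerase that works with calreticulin, had a log2 fold change of 0.09, and Pdia4 of 0.04. The LPS values of none of these 4 genes separated from the controls.

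The 4 tested genes with the ER element printed above (Calr, Dnajc3, Hsp90b1 and Pdia6) had log2 fold changes from -0.23 to -0.01, and 0 passed. The shared sign did not hold with a library left out: without control 2 Hsp90b1 was at 0.24 and Pdia6 at 0.03, and without LPS 2 Calr was at 0.14. Dnajc3, an inhibitor of eIF2-alpha kinases and ER co-chaperone, had 42.2 and 50.6 normalised counts in controls and 35.1 and 45.0 after LPS. The J proteins Dnajb9 and Dnajb11, which assist the ER HSP70, had log2 fold changes of -0.17 and 0.05 at means of 17.5 and 19.3 normalised counts. The other 2 genes with the element, Hspa5 and Canx, were listed at 0 throughout. Hspa5 encodes BiP, the ER HSP70.

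Hsf1 itself, the heat shock transcription factor, had 76.0 and 76.8 normalised counts in controls and 96.2 and 89.0 after LPS. The LPS libraries lay above the controls, but the gene missed the threshold (log2 fold change 0.28, SE 0.229, 95% interval -0.23 to 0.78, adjusted p 0.713). Of 7 small heat shock protein genes, 1 was tested. Hspb7 had 36.6 and 32.9 normalised counts in controls and 21.3 and 24.4 after LPS, below both controls (log2 fold change -0.59, 95% interval -1.28 to 0.10, adjusted p 0.432). Hspb1, the best-known small heat shock gene, was listed at 0 in all 4 libraries. Hspbp1, an exchange factor for HSP70, had a log2 fold change of -0.21 (-0.47 without control 2). Hspbap1, named for binding HSPB1, had 1 of 0.55 with an interval from -0.40 to 1.51.

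The 40 untested genes had at most 12 counts in any library, and 21 of them were listed at 0 in all 4. Their number of records went with this. Of 68 chaperone genes with 1 record, 46 were tested (67.6%), whereas 4 of 22 with 2 or more records were (18.2%). Over all genes the shares were 34.8% and 6.09%. Hspa5, Canx, Tcp1, Dnaja3 and Hspa13, which have 2 or 3 records each, are among the genes at 0, and such genes as Hspa5 and Tcp1 are used by every cell. A listed 0 is therefore not read as absence; how reads shared by records of a gene were counted is not given in the sources used here, and its part in these zeros was not tested.

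The libraries of 1 group also differed from each other. In 31 of 50 the controls differed from each other by more than the group means did, and in 23 the LPS libraries did. The matching counts over all records were not made, so these counts are not read as a trait of the chaperone genes. The SD of the log2 ratio of control 1 to control 2 over the 50 genes was 0.53, against 0.25 for LPS 1 to LPS 2. Over all 6981 records tested these SDs were 0.61 and 0.38, so the wider control spread was not particular to the chaperone genes. The control ratio ran from -1.60 in Hsp90aa1 to 1.15 in Hspbap1, and other low values were those of Dnajc2 (-1.24) and Cct8 (-0.97). Of 30 named genes, 17 had opposite signs without control 1 and without control 2, Hspd1, Hspe1, Hsph1, Pdia3 and Hspbap1 among them.

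**Figure D4:**
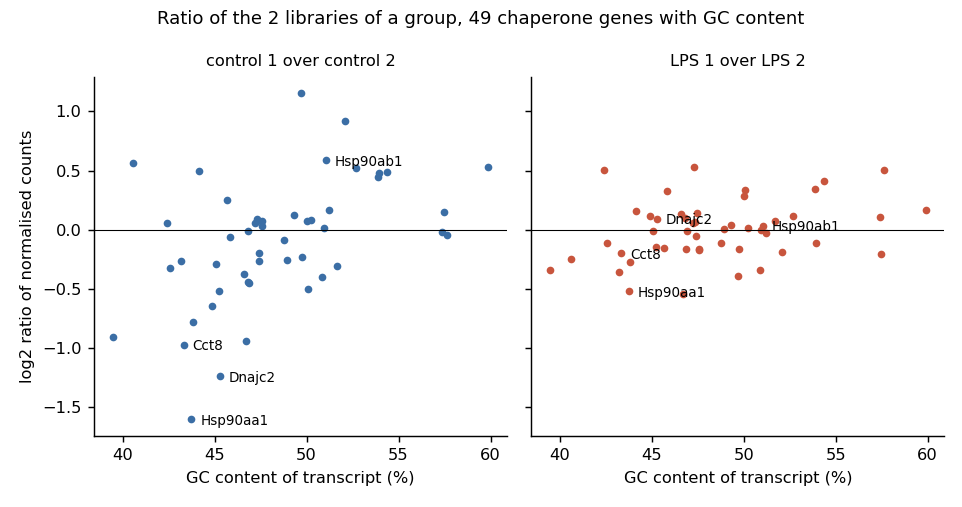
Log2 ratio of normalised counts between the 2 libraries of a group against the GC content of the transcript, for controls (left) and LPS (right), over the 49 tested chaperone genes with a transcript sequence. Control points spread from -1.60 to 1.15 and rise with GC content, while LPS points stay between -0.54 and 0.53.

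The control ratio went with base composition. Across 49 genes, Spearman's rho between the ratio and GC content was 0.51 (Pearson's r 0.47) for the controls and 0.29 (0.32) for LPS. Over the 6930 tested records with GC content it was 0.66 (0.62) for the controls and 0.27 (0.23) for LPS. The control trend was thus not particular to the chaperone genes. These chaperone genes share the same libraries and are not independent replicates. The median control ratio was -0.48 for 10 genes below 45% GC, -0.14 for 22 genes from 45% to 50% and 0.15 for 17 genes of at least 50%. The 2 cytosolic HSP90 genes lie on either side, with 43.7% GC in Hsp90aa1 and 51.0% in Hsp90ab1. The median log2 fold change between LPS and control in the 3 bins was -0.17, 0.07 and 0.05. The part of base composition in single fold changes was not tested beyond the fit with the trend removed.

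The wider folding machinery was read from a list of 75 genes: co-chaperones, prefoldin and tubulin cofactors, mitochondrial chaperones, ER folding enzymes and other heat shock factors. Of these, 59 were tested and 0 passed in edgeR, DESeq2 or limma-voom: 20 of 28 co-chaperones were tested, 13 of 14 prefoldin and CCT helpers, 7 of 8 mitochondrial chaperones, 17 of 21 ER folding genes and 2 of 4 heat shock factors. The median log2 fold change was 0.01, and the number with an unadjusted p below 0.05 was 1 in edgeR, 0 in DESeq2 and 1 in limma-voom. Over all 6981 records the edgeR number was 1076. The most abundant were Fkbp4, an HSP90 immunophilin, Stip1, the HOP protein that links HSP70 to HSP90, and Hyou1, the ER HSP110. Stip1 had 1336 and 1153 normalised counts in controls and 1562 and 1529 after LPS (adjusted p 0.471, log2 fold change 0.31). Without control 1 the log2 fold change of Stip1 was 0.43. Fkbp4 had a log2 fold change of -0.17, which was -0.33 without control 2 and 0.0078 without control 1. For Hyou1 the log2 fold change was -0.08.

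Ero1a, the oxidase that recharges disulphide isomerases, was the gene with that unadjusted p and is singled out after its values were seen. It had 57.7 and 85.2 normalised counts in controls and 120 and 111 after LPS, with no overlap between groups (log2 fold change 0.67, SE 0.250, 95% interval 0.12 to 1.22, adjusted p 0.202). It was called without control 2 (1.00, adjusted p 0.00129) and with the GC and length trend removed (0.61, adjusted p 0.0414). Hsf2, a second heat shock factor, had 52.0 and 53.2 normalised counts in controls and 49.0 and 49.9 after LPS (log2 fold change -0.09). Of the chaperone genes and this list combined, 0 of 109 tested genes passed, beside the 5.53% of all records, and their median log2 fold change was 0.02.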

How the data were processed

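Read counts in whole numbers, 1 row per RefSeq transcript record, make up the deposited table of 4 libraries. Although the table is called normalised, its column sums differ, and the deposited counts were analysed as unnormalised. Unequal sums do not show that no scaling was applied, so that choice is an assumption. The submitters' processing notes name TopHat2 2.0.10, HTSeq 0.6.1, Cufflinks 2.2.1, CASAVA 1.8.2, Trimmomatic 0.33 and mm10; what each did, with which settings and strand option, is not given in the sources used here. Per the labels' protocols, ribosomal RNA was depleted and directional libraries were random-primed.

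RefSeq tables of GRCm38.p6 gave symbols to 32487 of 32915 records; those left without one took at most 0.121% of a library, NR_046233 aside. Records passing edgeR's filterByExpr (minimum count 10) numbered 6981. LPS was compared with control across all records by edgeR 4.0.16 (TMM, quasi-likelihood test, no covariates, R 4.3.3); p-values were adjusted by Benjamini-Hochberg and called below 0.05. Normalised counts are counts scaled to the mean effective library size. The TMM factors were 0.798 for control 1, 1.21 for control 2, 1.00 for LPS 1 and 1.03 for LPS 2. Intervals are 95%, from the fold change, its standard error and the fit's degrees of freedom. Transcript length and GC content came from GENCODE M21 and covered 99.3% of tested records. Scripts were tested on simulated counts. Alternatives used DESeq2 1.42.0, limma-voom 3.58.1, other filters and scalings, summed records, left-out libraries, a replicate block and, added after seeing the data, removal of a GC and length trend.

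Members and lists were chosen with earlier results of these data known. Named genes are those passing the test, the 20 most abundant, the 5 with the largest absolute log2 fold change, a set of well-known chaperones, and from the folding list those passing the test and the 3 most abundant; others are named to complete a role. Intervals cover the spread between these libraries only.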

Additional observations from a re-analysis of the deposited data

How the results depend on the processing

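Of 13 alternatives, 10 called 0 tested chaperone genes. Leaving out 1 library gave 0 to 8 chaperone genes, 0 to 6 other folding genes and 204 to 1304 records, and the median log2 fold change of the chaperone genes ran from -0.033 to 0.14. The high counts came without a control, 4 chaperone genes and 1122 records without control 1 and 8 and 1304 without control 2, where the lone control is assumed to vary like the LPS pair. Hspa8 and Hsp90aa1 were called in both of these fits, Hspa8 higher each time and Hsp90aa1 with a log2 fold change of 1.01 without control 2 against -0.58 without control 1. Without an LPS library, 233 (LPS 1 left out) and 204 (LPS 2) records were called and 0 chaperone genes. With the GC and length trend removed, 782 of 6981 records (11.2%), 1 of 50 chaperone genes (Hspa8) and 1 of 59 other folding genes (Ero1a) were called. A mean of at least 50 normalised counts left 218 called records.

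No label says whether a replicate number marks a shared culture or day, so whether the samples are paired is unknown. Deviations of control 1 and LPS 1 from their group means had a correlation of 0.255 across 6981 records. The replicate block gave 689 called records, 0 chaperone genes and 1 other folding gene (Ero1a, adjusted p 0.0486).

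Among 385 values of 30 tested named genes under these alternatives, 38 had a changed sign, in 18 genes. Outside the fits without a control, only Hspa8 with the GC and length trend removed passed the threshold. Depth limits the low genes most, since 27 of 50 had at least 100 counts in every library, and the 6 genes whose interval passed a 2-fold change had means from 10.4 to 78.2 normalised counts.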
